A study of Homo sapiens with 6 samples.

Results

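The long noncoding RNAs followed here in irradiated and control HMC3 cells were NEAT1, MALAT1, TUG1, NORAD, KCNQ1OT1, MEG3, PVT1 and LINC-PINT. They were chosen by name, as RNAs that act in the nucleus or are linked to p53, and all 8 were found among the 31768 genes with counts. HMC3 is a human microglial cell line immortalized with a viral large T antigen, a protein known to bind p53. Of 6 independent cultures, 3 were irradiated with 15 Gy (megavoltage X-rays) and 3 received 0 Gy, and all were collected after 24 h. RNA was captured by its poly(A) tail, amplified as cDNA and sequenced as long reads on Oxford Nanopore flow cells. The values are counts per annotated transcript, and all rows of a gene were summed, which gave 41 to 2364 counts per RNA and library.

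Long noncoding RNAs carry no extended reading frame and act as RNA. NEAT1 is the scaffold of paraspeckles, nuclear bodies that hold RNA-binding proteins, and MALAT1 is an abundant RNA of nuclear speckles, where splicing factors gather. NEAT1 and LINC-PINT are known p53 targets, NORAD rises with DNA damage and binds Pumilio proteins, and PVT1 lies beside MYC and holds a p53-responsive site.

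NORAD is shown first because its sequence carries its known partner. The Pumilio element TGTANATA, searched on the RNA strand only, occurred 15 times without overlap in the 5339-nt transcript ENST00000565493. Of 12568 GENCODE release 29 transcripts of 4000 to 7000 nt, 40.5% held at least 1 match and 3, NORAD included, held 15 or more. In 3 places, 2 elements started 9 nt apart with a single base between them. These pairs, on the minus strand of chromosome 20 (GRCh38, chr20:36049483-36049539, chr20:36048286-36048342 and chr20:36047650-36047706), are given here as DNA letters with the elements in capitals.
NORAD pair 1: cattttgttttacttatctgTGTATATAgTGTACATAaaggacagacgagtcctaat
NORAD pair 2: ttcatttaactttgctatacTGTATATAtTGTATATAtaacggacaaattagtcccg
NORAD pair 3: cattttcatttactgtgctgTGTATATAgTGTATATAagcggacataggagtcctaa

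The ends of NEAT1 and MALAT1 bear on what a poly(A) capture can see. The long NEAT1 transcript and MALAT1 are known to end in a cleaved triple helix rather than in a poly(A) tail, whereas the short NEAT1 transcripts are polyadenylated. The last 60 bases of the long NEAT1 transcript ENST00000501122 (chr11:65445481-65445540, plus strand) are printed with runs of at least 4 A in capitals. For MALAT1, the annotated transcript ENST00000534336 runs on past the known cleavage, and the stretch with the A tract of the triple helix is printed (chr11:65506078-65506130, plus strand), its 13 A in capitals and 359 bases before the annotated end. The cleaved-off small RNA known as mascRNA starts at gatgctgg in this stretch.
NEAT1 long 3′ end: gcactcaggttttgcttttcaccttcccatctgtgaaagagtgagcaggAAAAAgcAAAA
MALAT1 A tract: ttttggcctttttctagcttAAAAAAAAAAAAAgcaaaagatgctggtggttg

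Inside the long NEAT1 transcript, TUG1 and KCNQ1OT1, longer runs of A were found, and oligo(dT) primers can also anneal to such runs. Runs of at least 10 A are common: 25.3% of 12568 GENCODE release 29 transcripts of 4000 to 7000 nt held 1 or more. The KCNQ1OT1, NEAT1 and TUG1 transcripts given here are longer than that class, so the share is not a background of like length. KCNQ1OT1 ENST00000597346, of 91667 nt, had 17 of them, the longest with 29 A (not printed here). The longest runs of the other RNAs named had 22 A in the long NEAT1 transcript (4676 bases before its end, chr11:65440823-65440884) and 18 A in TUG1 ENST00000644773 (3314 bases before its end, chr22:30976044-30976101). Where the reads of these RNAs were primed was not tested. The runs of NEAT1 and TUG1 are in capitals with 20 bases on either side.
NEAT1 long: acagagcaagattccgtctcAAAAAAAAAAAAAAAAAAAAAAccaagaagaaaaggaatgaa
TUG1: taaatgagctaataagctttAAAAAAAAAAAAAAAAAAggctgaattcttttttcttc

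The promoters of 5 of the 8 genes (LINC-PINT, MALAT1, MEG3, NORAD and TUG1) were matched in RefSeq's table (GRCh38.p14), with 11 start sites in all. None of these 300-base windows held an exact p53 half-site consensus, a palindrome that reads alike on both strands, against 6.6% of the 35116 windows in the table. These letters were therefore not in the windows searched, and binding of p53 was not measured.

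Libraries held 6292049 to 6909420 counts in irradiated and 4870897 to 9082409 in control cells, and the 8 RNAs together took 0.0733 to 0.0777% of the counts in irradiated and 0.0362 to 0.0569% in control libraries. TMM factors were 1.10 to 1.24 in irradiated and 0.788 to 0.931 in control libraries. All levels are therefore given as CPM scaled by TMM, and with library totals alone all genes had a median log2 fold change of 0.53 instead of 0.0787. Control 3 correlated more closely with the irradiated libraries across genes (Pearson's r of log2 CPM 0.957 to 0.965) than controls 1 and 2 did (0.928 to 0.945). Of 13 microglial markers, CD68 was among those expressed and AIF1, CSF1R, TREM2, PTPRC and SPI1 had 0 to 13 counts per library. The search by name found no entry for 6 of the 13 among the genes with counts. Summed over the 7 measured markers, the level was 109 to 125 CPM in irradiated and 79.2 to 102 CPM in control libraries. The 8 fibroblast and pericyte markers summed to 344 to 421 CPM in irradiated and 364 to 402 CPM in control libraries. Of these 8, COL1A2 and ACTA2 passed both limits and were higher, and at the adjusted p alone 4 were higher and 2 lower (THY1 −0.64 and NT5E −0.67 on the log2 scale). The defining microglial markers were therefore near 0 or not found, and the part of cell type markers in the results below was not tested.

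At gene level, irradiated cells held more NEAT1, NORAD and TUG1, all past an adjusted p of 0.05 but short of 2-fold, and the other 5 RNAs did not pass. Each gene was tested by the quasi-likelihood method of edgeR and called differentially expressed at a Benjamini-Hochberg adjusted p under 0.05 over 12865 genes with an absolute log2 fold change over 1. By both limits edgeR called 0 of the 8 RNAs, as did DESeq2, against 6.02% of all genes tested (4.05% higher and 1.97% lower). At the adjusted p alone, 3 of 8 were higher and 0 lower, where 10.5% of all genes were higher and 13.6% lower (24.1% in all), and the same 3 had an unadjusted p under 0.05 (4 of 8 by DESeq2). The irradiated and control values did not overlap for these 3, which were higher, and for LINC-PINT, which was lower, against 42.9% of all genes in either direction and 21.8% higher. The median log2 fold change of the 8 RNAs was 0.17.

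**Figure D1:**
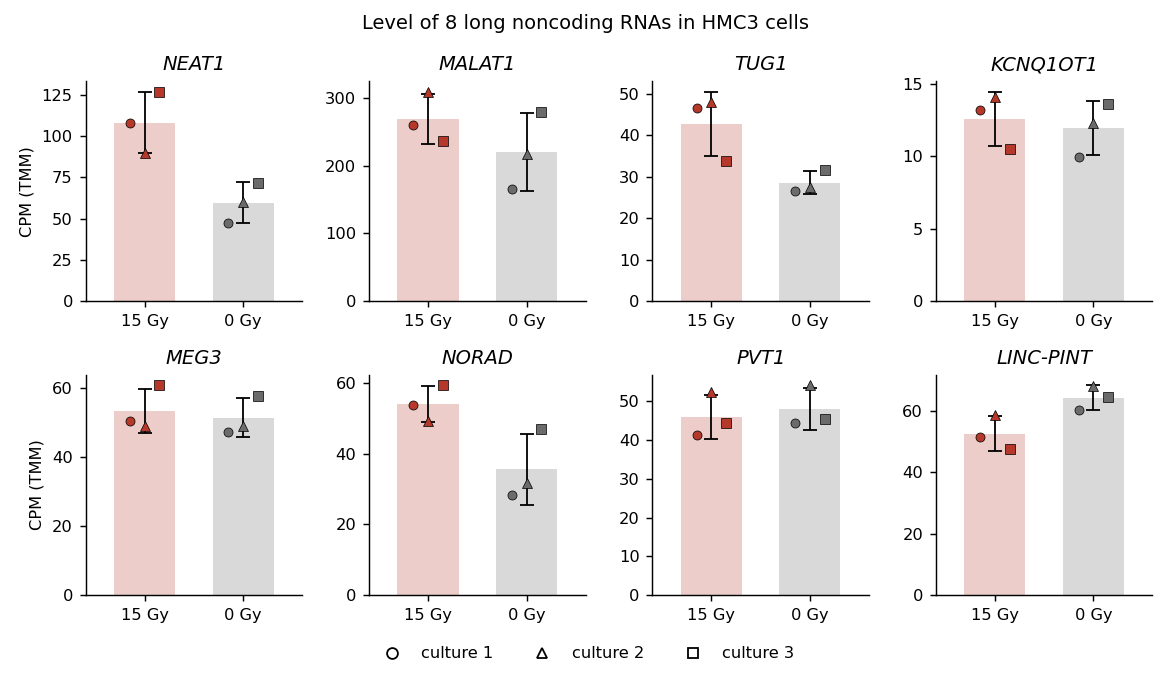
Level of each RNA per culture in CPM normalized by TMM, in irradiated (15 Gy, red) and control (0 Gy, gray) cells, where symbols are the 3 cultures of a group, bars means and error bars SDs. NEAT1 averaged 108 CPM in irradiated and 59.7 CPM in control cells, and the groups are apart for NEAT1, NORAD, TUG1 and LINC-PINT only.

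NEAT1 (ENSG00000245532, chromosome 11 of GRCh38 from 65422774 to 65445540, plus strand) had 108, 90.0 and 127 CPM in irradiated cultures 1, 2 and 3, against 47.1, 60.4 and 71.5 CPM in controls 1, 2 and 3. Each irradiated culture was above each control, and control 3 was the highest control. NEAT1 averaged 108 ± 18.5 CPM in irradiated and 59.7 ± 12.2 CPM in control cells (SD, n = 3 each). The difference was 1.8-fold (0.85 ± 0.17 SE as log2, edgeR's adjusted p = 0.004). These levels rest on 630 to 1037 counts per irradiated and 194 to 605 per control library. In bulk RNA, more cells with NEAT1 and more NEAT1 per cell cannot be told apart.

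MALAT1 (ENSG00000251562, chromosome 11 from 65497688 to 65506516, plus strand), the neighbor of NEAT1, had 260, 309 and 236 CPM in irradiated cultures, against 165, 216 and 280 CPM in controls. The groups overlapped, since control 3 exceeded 2 of the 3 irradiated cultures. MALAT1 averaged 268 ± 37.1 CPM in irradiated and 220 ± 57.4 CPM in control cells (SD, n = 3 each), with a log2 fold change of 0.28 (SE 0.17, edgeR's adjusted p = 0.241). Without control 3 the log2 fold change was 0.46 (edgeR's adjusted p = 0.0343), and without control 1 it was 0.10.

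TUG1 (ENSG00000253352, chromosome 22 from 30969245 to 30979395, plus strand) shares a bidirectional promoter with a neighboring gene and had 46.4, 48.0 and 33.9 CPM in irradiated cultures, against 26.5, 27.6 and 31.7 CPM in controls. Irradiated culture 3 lay close above control 3, and the groups did not overlap. TUG1 averaged 42.8 ± 7.72 CPM in irradiated and 28.6 ± 2.74 CPM in control cells (SD, n = 3 each), which gave on the log2 scale a change of 0.57 (SE 0.176, edgeR's adjusted p = 0.0305). The adjusted p rose above 0.05 without irradiated culture 1 (0.109) or 2 (0.0982) and without control 1 (0.0898) or 2 (0.0816).

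NORAD (ENSG00000260032, chromosome 20 from 36045622 to 36050960, minus strand), the cytoplasmic RNA whose Pumilio elements are shown above, had 53.7, 49.3 and 59.3 CPM in irradiated cultures, against 28.2, 31.6 and 47.1 CPM in controls. Control 3 came within reach of irradiated culture 2, while controls 1 and 2 were well below. NORAD averaged 54.1 ± 5.05 CPM in irradiated and 35.6 ± 10.1 CPM in control cells (SD, n = 3 each), which gave on the log2 scale a change of 0.59 (SE 0.187, edgeR's adjusted p = 0.0359). The adjusted p rose above 0.05 without irradiated culture 1 (0.083) or 3 (0.123) and without control 1 (0.121) or 2 (0.115).

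KCNQ1OT1 and MEG3 are transcribed from one parental allele of imprinted regions. KCNQ1OT1 (ENSG00000269821, chromosome 11 from 2608328 to 2699994, minus strand), antisense to the potassium channel gene KCNQ1, had 13.2, 14.1 and 10.5 CPM in irradiated cultures, against 9.96, 12.3 and 13.6 CPM in controls. The log2 fold change was 0.06 (SE 0.222, edgeR's adjusted p = 0.869). How strand was treated in counting is not stated, so reads from KCNQ1 introns cannot be told apart from KCNQ1OT1. KCNQ1 itself had 1 count in irradiated culture 1 and 0 in every other library, and any part of its intron reads was not tested. MEG3 (ENSG00000214548, chromosome 14 from 100779410 to 100861031, plus strand), which is known to raise p53 activity, had 50.6, 49.0 and 60.9 CPM in irradiated cultures, against 47.4, 49.1 and 57.9 CPM in controls. Its log2 fold change was 0.05 (SE 0.15, edgeR's adjusted p = 0.828), and the values of both groups covered nearly the same range.

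PVT1 (ENSG00000249859, chromosome 8 from 127794533 to 128101253, plus strand) had 41.4, 52.4 and 44.4 CPM in irradiated cultures, against 44.5, 54.1 and 45.4 CPM in controls. The groups overlapped almost fully, with a log2 fold change of −0.06 (SE 0.154, edgeR's adjusted p = 0.801). LINC-PINT (ENSG00000231721, chromosome 7 from 130938963 to 131110176, minus strand), a p53 target that interacts with the Polycomb repressive complex 2, had 51.5, 58.8 and 47.5 CPM in irradiated cultures, against 60.2, 68.2 and 64.5 CPM in controls. Each irradiated culture was below each control, irradiated culture 2 only just. The log2 fold change was −0.29 (SE 0.14, edgeR's adjusted p = 0.138), so the difference did not pass.

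These RNAs differ in length, and the log2 fold changes of all genes differed by length as well. Lengths are means over a gene's GENCODE release 29 transcripts, weighted by counts. Tested genes of 500 to 1000 nt had a median log2 fold change of −0.40, those of 2000 to 3000 nt 0.06, those of 4000 to 6000 nt 0.30 and those of 6000 nt or more 0.34. NEAT1 (8888 nt) lay above the upper quartile of its class, 0.63, while TUG1 (5753 nt) and NORAD (5339 nt) lay just under the upper quartile of theirs, 0.62. With a length offset per library, fitted to the counts and chosen after seeing the data, NEAT1 had a log2 fold change of 0.48 (edgeR's adjusted p = 0.0354). With the same offset TUG1 had 0.25 (edgeR's adjusted p = 0.329) and NORAD 0.29 (edgeR's adjusted p = 0.23), so neither passed. LINC-PINT had −0.60 (edgeR's adjusted p = 0.0115) and was then lower in irradiated cells, but its length rests on transcripts with 10.8% of its counts. The corresponding share was 7% for PVT1 and 21.1% for MALAT1, and 62.7%, 96% and 100% for NEAT1, NORAD and TUG1.

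**Figure D2:**
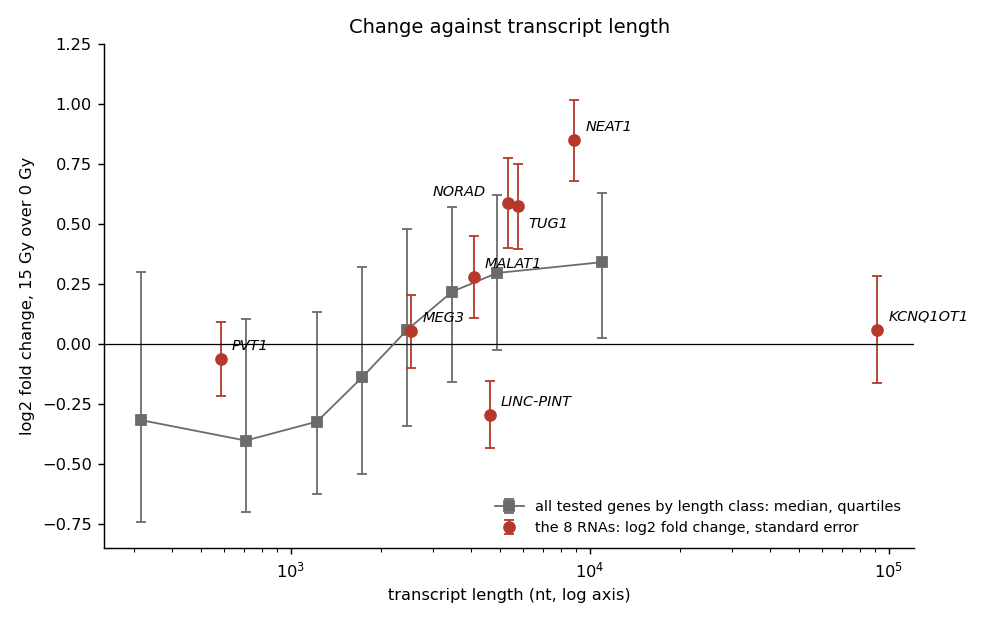
Log2 fold change, irradiated over control, against transcript length on a log axis, for the 8 RNAs (red, standard errors as bars) and for all tested genes with a length in 8 length classes (gray, medians with lower and upper quartiles, the last class open above 6000 nt). Medians of all genes run from −0.40 at 500 to 1000 nt to 0.34 above 6000 nt, and NEAT1 at 0.85 lies above the quartile bar nearest to it.

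The choice of scaling moved all 8 RNAs together. With library totals alone NEAT1 (1.3), NORAD (1.03) and TUG1 (1.02) passed both limits, MALAT1 (0.72), MEG3 (0.50) and PVT1 (0.40) passed the adjusted p, and the log2 fold changes of PVT1 and LINC-PINT (0.16) were above 0. Relative to the median of all genes on that scale, 0.53, PVT1 and LINC-PINT remained below and NEAT1 above it.

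**Figure D3:**
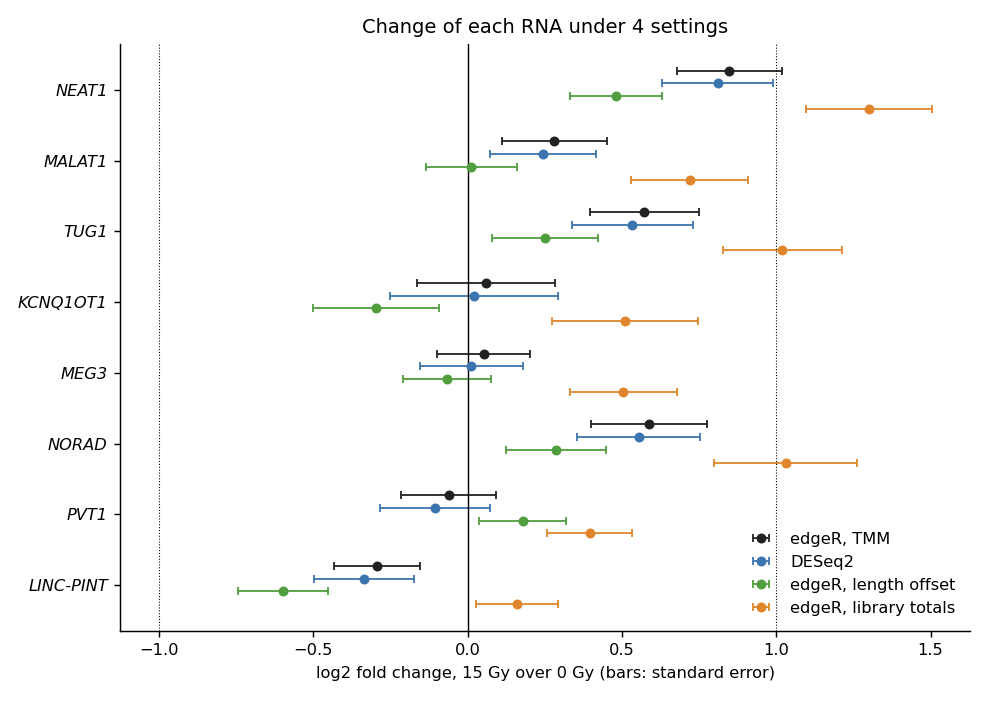
Log2 fold change, irradiated over control, of each RNA with its standard error, under edgeR with TMM (black), DESeq2 (blue), edgeR with the length offset (green) and edgeR with library totals alone (orange), with dotted lines at a 2-fold change. NEAT1 lies at 0.85 with TMM, 0.48 with the length offset and 1.3 with library totals, above 0 in each.

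The 8 genes had 718 annotated transcripts with a row, of which 291 reached 3 counts in at least 1 library and were kept. Reads were spread thinly over many overlapping models. Of 343 PVT1 transcripts 92 were kept, and the highest count of any of them in any library was 17. Of 208 LINC-PINT transcripts 68 were kept, with a highest count of 31. NORAD had 96.4% ± 0.97 of its counts on ENST00000565493 in irradiated and 96.3% ± 1.06 in control cells (SD, n = 3 each), and KCNQ1OT1 had 1 kept transcript.

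All 6 main NEAT1 transcripts were higher in irradiated cells, by less than 2-fold. The long form ENST00000501122, which spans 22743 nt, had 152, 121 and 196 counts in irradiated cultures, against 33, 71 and 106 counts in controls. Its level was 20.1 ± 3.31 CPM in irradiated and 10.6 ± 2.33 CPM in control cells (SD, n = 3 each), which gave on the log2 scale a change of 0.89 (SE 0.185, edgeR's adjusted p = 3.96e-05 over 76581 transcripts). The short form ENST00000499732, of 3441 nt, had 138, 100 and 171 counts in irradiated cultures, against 30, 66 and 100 in controls, a log2 fold change of 0.79 (edgeR's adjusted p = 0.000431). The 6 main transcripts, which also include ENST00000717968, ENST00000646243, ENST00000670617 and ENST00000645023, had log2 fold changes of 0.79 to 0.90, all at an adjusted p under 0.05, and together held 89.5 to 91.1% of the gene's counts in irradiated and 83.3 to 88.6% in control libraries. ENST00000499732, ENST00000646243 and ENST00000645023 overlap along most of their length and end by position 65426513, while the long form runs on to 65445540. For ENST00000717968 and ENST00000670617 no position was available. A read from a part that several transcripts share cannot be assigned with certainty, so the 6 transcripts are not independent results. The long form also covers nearly all of the region of these short forms. The average read length that the paper gives is far below the length of the long form. How many counts of the long form come from the part that it alone covers was not tested.

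Of the 291 kept transcripts edgeR called 6 at both limits (2 higher and 4 lower), or 2.06%, against 7.84% of all transcripts tested (3.48% higher and 4.36% lower). At the adjusted p alone 13 passed, against 19.6% of all. DESeq2 called 0, as did edgeR among transcripts with at least 10 counts in 3 libraries. The higher ones were MALAT1 ENST00000710951, with 24, 17 and 23 counts in irradiated cultures, against 6, 6 and 14 in controls, and PVT1 ENST00000844789, with 2, 7 and 6 counts in irradiated cultures, against 1, 0 and 0 in controls. Lower were LINC-PINT ENST00000845304 and PVT1 ENST00000669132, ENST00000844798 and ENST00000701558, the last with 0, 1 and 2 counts in irradiated cultures, against 5, 10 and 5 in controls. None of the 4 lower transcripts had more than 12 counts in any library. With DESeq2 and with the filter of 10 counts, the called PVT1 and LINC-PINT transcripts had no adjusted p and could not be called. MALAT1 ENST00000710951 had a log2 fold change of 0.978 by DESeq2 (DESeq2's adjusted p = 0.183). With the filter of 10 counts it had 0.965 (edgeR's adjusted p = 0.028), short of the fold limit. Without control 2 or irradiated culture 3, 1 transcript was called, and without control 3, 11 were.

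**Figure D4:**
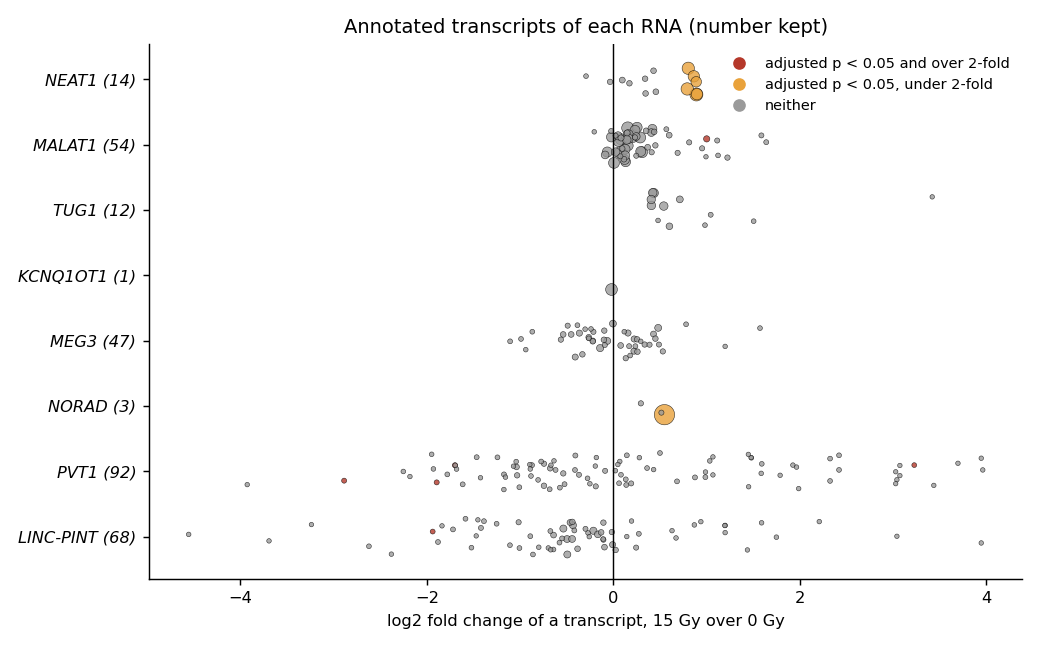
Log2 fold change, irradiated over control, of each kept transcript of the 8 RNAs, with the number of transcripts in parentheses, where larger points stand for higher mean CPM and colors for the limits passed. The 6 main NEAT1 transcripts lie together between 0.79 and 0.90, and the widest spread is among PVT1 and LINC-PINT transcripts of few counts.

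Isoform usage was compared as the isoform fraction (IF), a transcript's share of its gene's kept counts, and dIF, the mean IF of irradiated minus that of control cultures. On simulated data the test missed a good part of true usage changes, more of them where isoforms with larger fractions were drawn, so a usage p that misses the threshold says little by itself. edgeR's diffSpliceDGE called 0 of 290 tested transcripts switched (adjusted p under 0.05 and an absolute dIF of at least 10 percentage points), against 0.404% of all 74843 transcripts. limma's diffSplice called 0 as well, and 17 transcripts had an unadjusted p under 0.05 by edgeR. No transcript moved by 10 points: the largest absolute dIF was 2.63 points, in PVT1, and no NEAT1, MALAT1, TUG1 or NORAD transcript exceeded 1.38 points. The highest mean share of any transcript was 6.16% in MALAT1, 6.38% in MEG3, 3.67% in PVT1 and 6.65% in LINC-PINT. Shares this small left little room for a move of 10 points, so the absence of calls says little for these genes. The long NEAT1 form held 18.8% ± 0.59 of the gene's counts in irradiated and 17.4% ± 0.25 in control cells (SD, n = 3 each, dIF 1.38 points), and its usage did not pass (edgeR's adjusted p = 1). TUG1 was spread over 5 transcripts with at least 10% each (ENST00000644773, ENST00000646496, ENST00000644027, ENST00000519077 and ENST00000643920), led by the first with 18.9% in irradiated and 19.9% in control cells. Their log2 fold changes were 0.41 to 0.54 and none passed the adjusted p. In usage, PVT1 ENST00000701558 (0.416% in irradiated and 3.05% in control cells) and ENST00000844789 (2.10% and 0.258%) passed edgeR's adjusted p but not the dIF limit.

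Protein-coding p53 targets, a list written by hand with earlier results of these data known, were higher in 11 of 24 tested genes and lower in 0 at both limits, with a median log2 fold change of 0.987, beside 0.0787 for all genes. CDKN1A, the cell cycle inhibitor p21, averaged 598 CPM in irradiated and 177 CPM in control cells, FDXR, a ferredoxin reductase, 74.8 and 14.9 CPM, MDM2, the ubiquitin ligase of p53, 78.7 and 25.2 CPM, and TP53I3, a quinone oxidoreductase, 59.7 and 27.4 CPM. Among 5 tested noncoding genes linked to p53, none passed both limits. PURPL had a log2 fold change of 0.83 (edgeR's adjusted p = 0.0429) and GAS5, a host of snoRNAs, one of −0.66 (edgeR's adjusted p = 0.0124), both named after their values were seen. Neither call was stable: 0 of the 5 genes were higher at the adjusted p with RLE factors, with DESeq2, with the study's filter and in 5 of 6 fits with 1 library left out, and 0 were lower without irradiated culture 1 or 3 or without control 2. Among 5 tested genes listed as nuclear noncoding RNAs, the imprinted H19 rose (16.9 CPM in irradiated and 2.50 CPM in control cells, log2 fold change 2.93) and DANCR fell (63.9 and 155 CPM, −1.28), both at adjusted p of at most 0.0018 by edgeR. Where in the cell these RNAs lay was not measured.

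Among transcripts of the proteins that these RNAs bind or gather, none passed both limits with TMM, while with library totals alone 2 paraspeckle, 1 Pumilio and 1 Polycomb gene did. Of 14 genes of paraspeckle proteins, at the adjusted p alone 4 were higher (SMARCA4 0.89, EWSR1 0.63 and DAZAP1 0.44 on the log2 scale among them) and 2 lower (NUDT21 −0.68, HNRNPK −0.46), beside 10.5% higher and 13.6% lower over all genes. Genes of the core paraspeckle proteins had log2 fold changes of 0.23 for SFPQ, −0.18 for NONO and 0.38 for PSPC1, none past the adjusted p. Of 12 genes of nuclear speckle proteins 0 were higher and 3 lower at the adjusted p alone, namely SRSF7 (−0.64), SRSF3 (−0.53) and SRRM1 (−0.46), and the list's median of −0.165 became 0.293 with library totals alone. PUM2, which codes for a Pumilio protein, averaged 30.8 CPM in irradiated and 19.1 CPM in control cells (log2 fold change 0.68, edgeR's adjusted p = 0.0183). Of 7 genes of the Polycomb repressive complex 2, which methylates histone H3, SUZ12 (0.72) and RBBP7 (0.46) were higher at the adjusted p alone and EZH2, its methyltransferase, had a log2 fold change of −0.02. Without irradiated culture 1 or 3 or without control 2, 0 Pumilio and 0 Polycomb genes passed the adjusted p, and without control 1 the count was 0 for Pumilio genes. With the length offset, 0 Pumilio genes passed the adjusted p, and 1 Polycomb gene was higher and 1 lower. Of the paraspeckle genes, 2 were then higher and 3 lower. The single genes other than PUM2 were named after their values were seen.

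Of 11 tested genes beside the 8 RNAs, LTBP3 and SLC22A18 passed both limits and were higher, and 4 were higher at the adjusted p alone. Over all genes tested, 4.05% were higher at both limits and 10.5% at the adjusted p alone. Without irradiated culture 1, 1 of the 11 passed both limits. With the length offset, 2 passed both limits and 2, not 4, were higher at the adjusted p alone. LTBP3, which binds latent TGF-beta and lies near NEAT1 and MALAT1, averaged 11.4 CPM in irradiated and 2.02 CPM in control cells (log2 fold change 2.33, edgeR's adjusted p = 0.00227). Its counts were few, with 86, 86 and 88 in irradiated cultures and 2, 12 and 32 in controls. SLC22A18, a transporter gene near KCNQ1OT1, averaged 7.58 and 2.84 CPM (1.43, edgeR's adjusted p = 0.0101). The other ones past the adjusted p were FRMD8, near NEAT1 and MALAT1 (0.69, edgeR's adjusted p = 0.0435), and EPB41L1, beside NORAD (0.68, edgeR's adjusted p = 0.012), named after their values were seen. Further neighbors had log2 fold changes of −0.31 for MYC, beside PVT1, 0.56 for MORC2, beside TUG1, 0.45 for CDKN1C, beside KCNQ1OT1, −0.41 for MKLN1, beside LINC-PINT, and −0.93 for CNBD2, beside NORAD, none past the adjusted p.

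**Figure D5:**
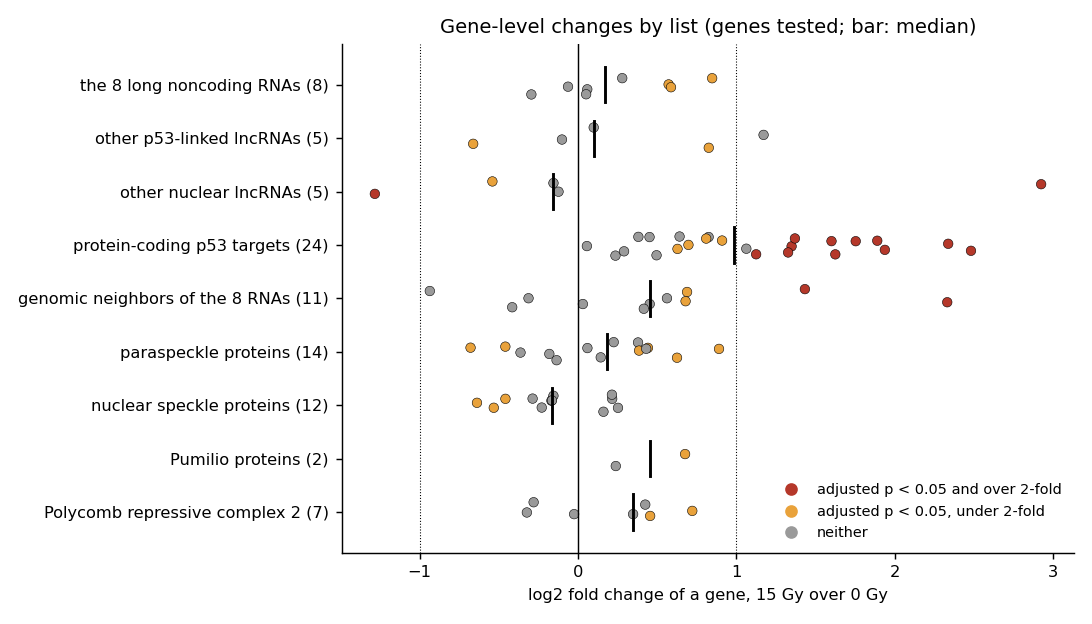
Log2 fold change, irradiated over control, of each tested gene in 9 groups, with the number of genes in parentheses, black bars at the medians and dotted lines at a 2-fold change. The 8 RNAs lie between −0.29 and 0.85 with a median of 0.17, and the protein-coding p53 targets have a median of 0.987.

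Genes with the most similar pattern over the 6 libraries were sought for MALAT1 and NEAT1, whose mean CPM was highest, among 6469 genes with at least 10 CPM. For NEAT1 they were BCL2L2 (Pearson's r of log2 CPM 0.995), BID (0.995) and RAD9A (0.994), with log2 fold changes of 0.34, 0.60 and 1.05. For MALAT1 they were ELK3 (0.991), IFI16 (0.988) and HAPSTR1 (0.969), with log2 fold changes of 0.16, 0.18 and 0.37. With 6 libraries and 6469 genes such values are a description only.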

How the data were processed

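The authors deposited a table of raw counts, 1 row per annotated transcript and 1 column for each of 6 libraries. The authors aligned reads with minimap2, assembled and annotated transcripts, and quantified them with Salmon on GRCh38. For the tool versions, annotation release, strand handling and any collapse of molecular identifiers: not given in the sources used here. Columns were matched to samples by the library names in the labels.

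All rows of a gene were summed, and genes reaching 10 counts in 3 or more libraries were tested with edgeR 4.0.16 (TMM, robust glmQLFit and glmQLFTest) in R 4.3.3. The study's filter, which also requires 2 kept transcripts per gene, would drop KCNQ1OT1 and was an alternative. Transcripts reaching 3 counts in any library were tested alike, and usage with diffSpliceDGE. Standard errors (SE) follow from the F statistic, as the size of the log2 change over its square root. Alternatives were RLE factors, library totals, DESeq2 1.42.0, diffSplice of limma 3.58.1, other filters and limits, length-divided isoform fractions, a replicate block and each library left out. The functions were tested on simulated data, where the gene and transcript tests recovered the changes put in and diffSpliceDGE recovered only part. The gene and transcript changes put in were larger than the gene-level change of any of the 8 RNAs. They lay in features with more counts than any PVT1 transcript. Recovery of changes as small, or at counts as low, as those reported here was not tested. The simulated usage changes were first drawn over a wider range of isoform fractions, where recovery was lower, and a narrower range of lower fractions was added after that result was seen. Members and lists were chosen with earlier results of these data known. All 8 genes, transcripts with at least 10% of their gene's counts or past the limits, and up to 4 called genes per list are named, others as chosen after their values were seen. Cell markers of neurons, astrocytes and oligodendrocytes summed to at most 24.0, 23.7 and 2.71 CPM in irradiated and 25.9, 32.3 and 1.46 CPM in control libraries. Values of a few listed genes and 1 sequence are not reported here. Plots were made with Python 3.11.15 and matplotlib 3.10.9.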

Additional observations from a re-analysis of the deposited data

How the results depend on the processing

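The number of the 8 RNAs called at both limits was 0 with edgeR and TMM and also 0 with RLE factors, DESeq2, no filter, the study's filter (KCNQ1OT1 not tested), the replicate block, the length offset and each library left out. It was 3 with library totals alone and 3 with the adjusted p alone. The number of called transcripts, 6 with edgeR and TMM, was 23 with library totals alone, 3 with the replicate block, 0 with DESeq2, 13 with the adjusted p alone, 0 with at least 10 counts in 3 libraries, 7 with RLE factors, and 1 to 11 with 1 library left out. With DESeq2 and with at least 10 counts in 3 libraries, the called PVT1 and LINC-PINT transcripts had no adjusted p and could not be called. No isoform was called switched under any setting run. Directions turned only where a log2 fold change was near 0 or the scale moved: LINC-PINT to 0.161 and PVT1 to 0.395 with library totals alone, and KCNQ1OT1 to −0.297, MEG3 to −0.0658 and PVT1 to 0.178 with the length offset. With 1 library left out, KCNQ1OT1 ranged from −0.0561 to 0.179, MEG3 from −0.0492 to 0.123 and PVT1 from −0.161 to 0.0395. NEAT1 kept its direction and an adjusted p under 0.05 throughout (0.702 to 0.973 with 1 library left out). The cause of the other changes was not tested.

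The labels do not say whether same-numbered libraries were paired. Deviations of same-numbered libraries from their group means correlated at −0.0433, 0.291 and 0.102. Differently numbered libraries gave −0.335 to 0.256. With 3 cultures per group these values cannot decide whether libraries were paired. With the replicate block, NEAT1, NORAD and TUG1 had log2 fold changes of 0.857, 0.62 and 0.56 and 0 of the 8 RNAs passed both limits. RNAs of 41 to 2364 counts per library are measured with the precision of those counts, and single transcripts of PVT1 and LINC-PINT with far less.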
